A study of Mus musculus with 8 samples.

Results

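The semaphorin family described here comprised 20 semaphorin genes of classes 3 to 7, which encode the ligands, and 11 receptor genes, namely 9 plexins and 2 neuropilins. The genes were taken by their symbols, with earlier results of these data known, and each was represented by the transcript cluster annotated to that gene alone, taking the brightest where a gene had several. All 31 genes had such a cluster, out of 19938 genes with one on the array. The cuprizone group consisted of 4 male wild-type C57BL/6 mice that had received 0.25% cuprizone for 1 week, and the control group of 4 male wild-type C57BL/6 mice on normal diet, all labelled as aged 8 weeks, which the labels do not tie to the start of feeding or to sampling. Cuprizone binds copper, and in mice that eat it oligodendrocytes are lost. Corpus callosum, the white matter tract joining the cerebral hemispheres, was dissected by hand after perfusion with saline, and its total RNA was hybridised to Affymetrix Mouse Gene 1.0 ST arrays, whose deposited values are log2 levels. The labels do not state where in the tract the tissue was taken or whether neighbouring cortex, striatum or ventricle wall was included.

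Semaphorins are secreted or membrane-bound guidance cues that share a sema domain and were first studied for steering growing axons. Most act through plexins, whose intracellular part inactivates small GTPases of the Ras and Rap families. Secreted class 3 semaphorins usually need a neuropilin as the binding partner that holds them to a plexin, whereas class 4 semaphorins bind mainly B-type plexins and class 6 semaphorins A-type plexins. In white matter the family is known for attracting or repelling oligodendrocyte progenitors, for limiting axon growth on mature oligodendrocytes and for signalling between immune cells and glia.

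After 1 week of cuprizone, 2 of the 31 genes were higher and 5 were lower at a limma adjusted p under 0.05. The higher ones were the receptor gene Plxnb2 and the ligand gene Sema3c, and the lower ones were the receptor genes Plxnb3 and Plxnb1 and the ligand genes Sema4d, Sema4a and Sema6a. These 7 genes made up 22.6% of the family, against 8.22% of all 23410 gene-named clusters tested. The family's clusters were bright, 28 of the 31 being above the median level of all clusters and 31 above the 25th percentile. The 8.22% includes dim clusters, and a share among clusters of like level was not computed. Fitted alone, the clusters above that median gave 1112 higher and 912 lower, where all 23410 gave 1102 and 823. The called share among bright clusters was thus above 8.22%. In that fit 3 family genes were higher and 8 lower. The 2 higher genes are to be read against 4.71% of clusters called higher, and the 5 lower genes against 3.52% called lower. The number higher was 1 when any single array other than cuprizone replicate 2 was left out, since Sema3c then missed the threshold. All 3 B-type plexins passed the threshold, 2 of them lower and 1 higher, and none of the other 8 receptors did. The plot of fold changes by class shows how the family spread around no change.

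**Figure D1:**
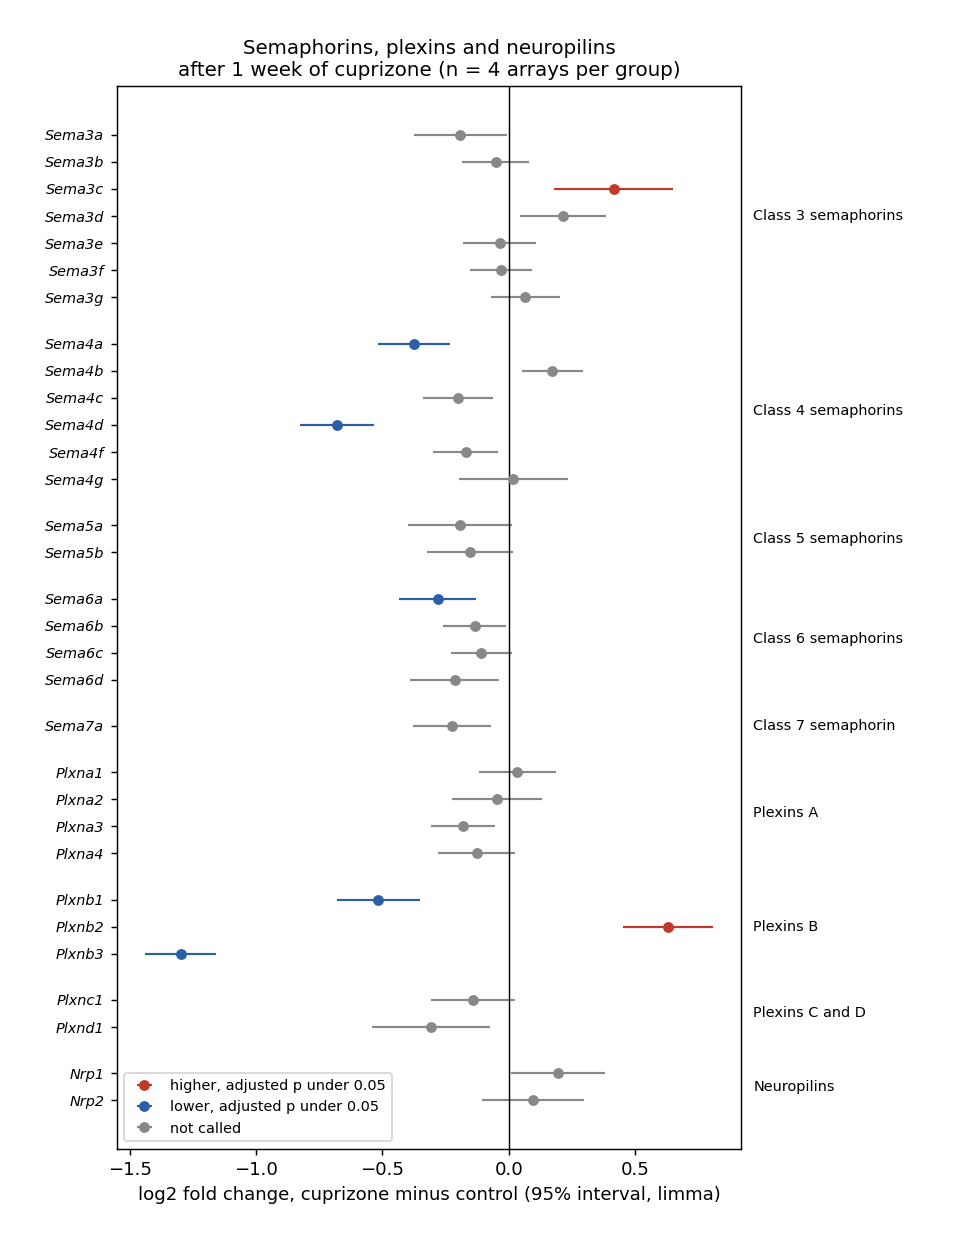
Log2 fold change of the 31 family genes, cuprizone minus control, on the horizontal axis, with 95% intervals from limma and genes grouped by class down the page. Plxnb3 lies furthest to the left at -1.30 and Plxnb2 furthest to the right at 0.63, and 24 genes in grey did not pass the threshold.

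The promoter sequences of the called genes are shown as description, among them those of the B-type plexins, which were called in opposite directions. The part of the promoter sequences in these directions was not tested. RefSeq promoter windows of GRCm38.p6 matched 26 of the 31 genes, with 37 transcription starts, and 6 of the 7 called genes had one. The 250 bases before the first start listed for each gene are printed below, 5′ to 3′ on the gene's strand. Capitals mark matches on either strand, overlaps allowed, to ACAAAG or AACAAT (SOX factors such as SOX10 of the oligodendrocyte lineage), CTGGCAC (MYRF, the myelin gene regulator), TGANTCA (AP-1), TTCNNNGAA (STAT) and GGGCGG (SP1). The windows are Plxnb3 at chrX:73756853-73757102 (+), Plxnb1 at chr9:109095186-109095435 (+), Plxnb2 at chr15:89180789-89181038 (-), Sema4d at chr13:51748811-51749060 (-), Sema4a at chr3:88461183-88461432 (-) and Sema3c at chr5:17574566-17574815 (+).
Plxnb3: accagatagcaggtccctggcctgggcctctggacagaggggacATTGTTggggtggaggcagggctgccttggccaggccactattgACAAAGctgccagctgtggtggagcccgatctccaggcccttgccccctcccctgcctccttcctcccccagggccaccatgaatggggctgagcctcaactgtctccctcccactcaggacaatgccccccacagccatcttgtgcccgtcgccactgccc
Plxnb1: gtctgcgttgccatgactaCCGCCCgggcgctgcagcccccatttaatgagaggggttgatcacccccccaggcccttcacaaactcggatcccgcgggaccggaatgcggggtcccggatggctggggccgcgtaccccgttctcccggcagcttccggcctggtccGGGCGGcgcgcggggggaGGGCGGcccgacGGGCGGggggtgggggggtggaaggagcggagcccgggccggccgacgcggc
Plxnb2: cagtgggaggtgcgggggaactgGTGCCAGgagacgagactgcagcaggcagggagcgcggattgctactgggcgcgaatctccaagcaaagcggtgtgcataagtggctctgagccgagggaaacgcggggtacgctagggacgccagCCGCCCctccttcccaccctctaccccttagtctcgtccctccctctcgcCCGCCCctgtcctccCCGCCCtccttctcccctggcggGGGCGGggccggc
Sema4d: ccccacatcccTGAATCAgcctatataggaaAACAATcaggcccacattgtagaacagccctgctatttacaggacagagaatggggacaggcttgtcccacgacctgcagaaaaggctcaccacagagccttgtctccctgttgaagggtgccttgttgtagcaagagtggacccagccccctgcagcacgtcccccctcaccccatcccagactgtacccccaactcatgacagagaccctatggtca
Sema4a: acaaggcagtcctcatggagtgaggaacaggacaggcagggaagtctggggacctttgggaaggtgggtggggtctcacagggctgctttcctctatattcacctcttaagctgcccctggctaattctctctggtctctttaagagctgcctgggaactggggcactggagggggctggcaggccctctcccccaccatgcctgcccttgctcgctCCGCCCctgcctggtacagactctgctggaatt
Sema3c: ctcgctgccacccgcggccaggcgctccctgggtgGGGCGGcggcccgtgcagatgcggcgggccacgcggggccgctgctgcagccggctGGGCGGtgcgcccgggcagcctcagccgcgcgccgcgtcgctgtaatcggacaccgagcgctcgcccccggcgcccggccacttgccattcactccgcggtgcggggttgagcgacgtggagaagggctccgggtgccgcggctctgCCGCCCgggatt

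The Plxnb3 window held 1 match to each SOX form and none to SP1, with 3 CpG dinucleotides and 65.2% G and C. The Plxnb1 window held 4 SP1 matches, 30 CpG dinucleotides and no SOX match. The Plxnb2 window held 4 SP1 matches, 1 MYRF match and 20 CpG dinucleotides. The Sema4d window held 1 match to the second SOX form and 1 to AP-1, that of Sema4a 1 to SP1, and that of Sema3c 3 to SP1 with 39 CpG dinucleotides. Sema4d has 3 listed starts, Sema4a 4 and Plxnb2 2, and only the first is printed. At the later starts the SOX and AP-1 matches of Sema4d and the MYRF match of Plxnb2 were absent. The later windows of Sema4a held 0 to 2 SP1 matches. Among all 32851 promoter windows of this length, 16.46% held the first SOX form, 9.42% the second, 4.19% MYRF, 6.75% AP-1, 7.02% STAT and 32.74% SP1. Among the 37 windows of the family these shares were 13.51%, 5.41%, 8.11%, 8.11%, 0.0% and 72.97% in the same order, at a median G and C content of 64.0% in the family against 52.4% overall. The windows of Plxnb3, Plxnb1, Plxnb2 and Sema4d lie inside the annotated span of their gene, so other starts lie further upstream. A match describes letters in a window and is not evidence of binding.

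Among the receptors, Plxnb3, a receptor for SEMA5A that is found in white matter, had the largest change of the family. Plxnb3 (transcript cluster 10600249) stood at log2 levels of 7.74, 7.72, 7.67 and 7.63 on cuprizone replicates 1 to 4, against 9.08, 8.84, 9.04 and 8.98 on control replicates 1 to 4. The groups were 1.10 log2 units apart at their nearest arrays, and the cuprizone arrays were closer together than the controls. Its mean was 7.69 ± 0.05 with cuprizone and 8.99 ± 0.10 on normal diet (SD, n = 4 each), 2.46-fold lower, and the change of -1.30 ± 0.06 in log2 units (SE) had a limma adjusted p of 1.14e-06. By size it ranked 46 among the 823 clusters called lower, and by p it ranked 10 among all clusters tested. All 14 measured markers of mature oligodendrocytes were lower on the same cuprizone arrays, and in bulk tissue fewer cells of a type and less RNA per cell cannot be told apart.

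Plxnb1, the receptor of SEMA4D on neurons and many other cells, fell less. Its levels (transcript cluster 10589368) were 8.58, 8.87, 8.57 and 8.59 on the cuprizone arrays, against 9.23, 9.09, 9.20 and 9.16 on the control arrays. Cuprizone replicate 2 stood above the other cuprizone arrays, and still below every control. The mean was 8.66 ± 0.15 with cuprizone and 9.17 ± 0.06 in controls, 1.43-fold lower, and the change of -0.52 ± 0.07 in log2 units had a limma adjusted p of 0.00139.

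Plxnb2, a receptor for SEMA4C and SEMA4G that acts in neural progenitors and in macrophages, moved the other way. Its levels (transcript cluster 10431424) were 9.34, 9.27, 9.51 and 9.48 on the cuprizone arrays, against 8.77, 8.90, 8.59 and 8.81 on the control arrays. The groups did not overlap, and the nearest arrays were 0.37 apart. The mean was 9.40 ± 0.11 with cuprizone and 8.77 ± 0.13 in controls, 1.55-fold higher, and the change of 0.63 ± 0.08 in log2 units had a limma adjusted p of 0.000585. The calls of Plxnb3 and Plxnb2 held in all 20 alternatives run for each. That of Plxnb1 held in 19, the exception being a test against a 1.2-fold change (adjusted p = 0.133, over a range of 0.000167 to 0.133).

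**Figure D2:**
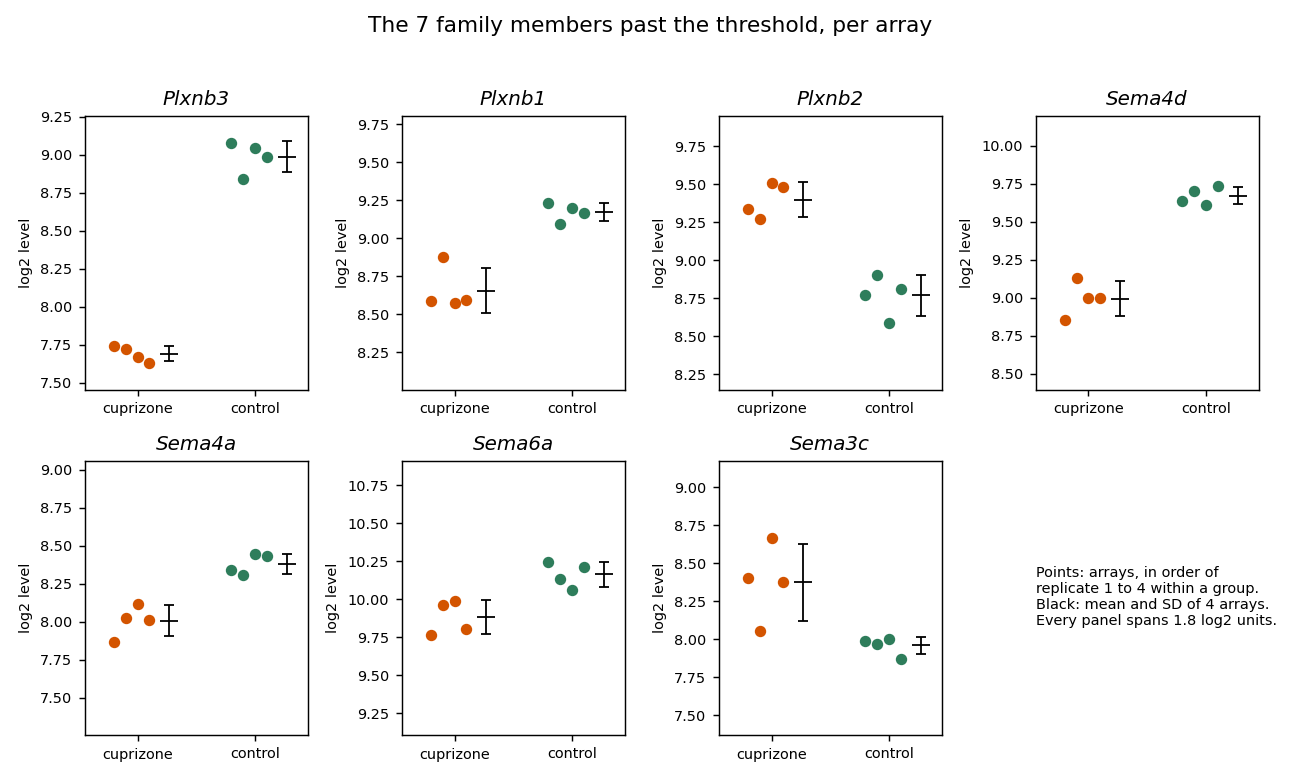
Log2 level of the 7 called genes on each array, with cuprizone on the left and control on the right of every panel. Points are arrays and black marks are the mean and SD of 4 arrays. The groups of Plxnb3 are 1.10 log2 units apart at their nearest arrays and those of Sema3c only 0.05.

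None of the A-type plexins, the usual signalling partners of neuropilins and class 6 semaphorins, passed the threshold. Plxna3, which takes part in SEMA3F signalling, stood at 7.56, 7.59, 7.67 and 7.61 on the cuprizone arrays, against 7.85, 7.84, 7.68 and 7.78 on the control arrays. All cuprizone arrays were below all controls, by a gap of 0.02, and the log2 fold change was -0.18 ± 0.06 (limma adjusted p = 0.0850, and 0.0329 to 1 across alternatives). For Plxna1, Plxna2 and Plxna4, which bind class 6 semaphorins and signal for class 3, the groups overlapped, with log2 fold changes of 0.03, -0.05 and -0.13. Their 95% intervals reached from -0.12 to 0.19 for Plxna1, from -0.22 to 0.13 for Plxna2 and from -0.28 to 0.02 for Plxna4. These intervals do not hold changes as large as that of Plxnb1.

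Plxnd1, the receptor of SEMA3E in endothelial cells and neurons, had 9.16, 8.95, 8.77 and 9.01 on the cuprizone arrays, against 9.21, 9.42, 9.45 and 9.03 on the control arrays. The groups overlapped, and control replicate 4 lay among the cuprizone arrays. Its log2 fold change was -0.31 ± 0.11 (limma adjusted p = 0.113), and without control replicate 4 it was -0.39 with an adjusted p of 0.0468, the alternatives giving 0.0468 to 1. Plxnc1, the receptor of SEMA7A, had a difference of -0.14 ± 0.08 in log2 units (limma adjusted p = 0.329). The neuropilins, which also bind vascular endothelial growth factors, had positive fold changes that did not pass, 0.19 ± 0.08 for Nrp1 and 0.10 ± 0.09 for Nrp2. Nrp1 stood at 8.48, 8.43, 8.66 and 8.79 on the cuprizone arrays, against 8.50, 8.30, 8.43 and 8.35 on the control arrays, so that control replicate 1 lay within the cuprizone range. Nrp2 had its highest value of all arrays on a control, 7.76 on control replicate 1.

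Among the ligands, the largest change was that of Sema4d, a transmembrane semaphorin that oligodendrocytes and T cells carry and that binds plexin-B1 and CD72. Its levels (transcript cluster 10409236) were 8.85, 9.13, 8.999 and 8.996 on the cuprizone arrays, against 9.64, 9.70, 9.61 and 9.74 on the control arrays. The groups were 0.48 apart at their nearest arrays. The mean was 8.99 ± 0.11 with cuprizone and 9.67 ± 0.06 in controls, 1.60-fold lower, and the change of -0.68 ± 0.07 in log2 units had a limma adjusted p of 0.000105. A further cluster of the same gene, 10409240, stood at 8.54, 8.72, 8.78 and 8.55 with cuprizone, against 9.26, 9.15, 9.30 and 9.28 in controls, and gave -0.60 ± 0.07 (limma adjusted p = 0.000332). Both clusters therefore fell, and the call held in all 21 alternatives run.

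Sema4a, which acts on T cells and binds plexins of the B and D types, fell as well. Its levels (transcript cluster 10499378) were 7.87, 8.02, 8.12 and 8.01 on the cuprizone arrays, against 8.34, 8.31, 8.44 and 8.43 on the control arrays. The groups did not overlap, with a gap of 0.19, and the level was 1.30-fold lower with cuprizone, or -0.37 ± 0.07 in log2 units (limma adjusted p = 0.00436). The call was lost in the test against a 1.2-fold change (adjusted p = 1, over a range of 0.00182 to 1) and held in the other 19 alternatives. The other class 4 genes did not pass. Sema4c, a ligand of plexin-B2, had a log2 fold change of -0.20 ± 0.06, Sema4f -0.17 ± 0.06 and Sema4b 0.17 ± 0.05, and the groups of each were apart by 0.03 to 0.08. Sema4g, likewise a ligand of plexin-B2, was the most uneven class 4 gene among the cuprizone arrays. It stood at 7.07, 7.48, 7.39 and 7.03 there, against 7.25, 7.19, 7.17 and 7.28 on the control arrays. The cuprizone values of Sema4g thus lay on either side of the controls, and the log2 fold change was 0.02 ± 0.10.

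Class 6 genes, membrane-bound ligands of A-type plexins, all had negative fold changes, between -0.28 and -0.11. Sema6a, which takes part in oligodendrocyte differentiation, was the one past the threshold. Its levels (transcript cluster 10458843) were 9.77, 9.96, 9.99 and 9.80 on the cuprizone arrays, against 10.25, 10.13, 10.06 and 10.21 on the control arrays. The gap between the groups was 0.07, and the log2 fold change was -0.28 ± 0.07 (limma adjusted p = 0.0302). The call was lost in 9 of 20 alternatives, whose adjusted p lay between 0.0136 and 1. Among these, the adjusted p was 0.0826 without cuprizone replicate 1, 0.0782 without cuprizone replicate 4, 0.0878 without control replicate 1, 0.0608 without control replicate 2 and 0.0853 without control replicate 4. Sema6d, a ligand of plexin-A1, had -0.21 ± 0.08, Sema6b, a ligand of plexin-A4, -0.13 ± 0.06, and Sema6c -0.11 ± 0.05. The 2 clusters annotated to Sema6b held the same values on every array and were counted once.

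Sema7a, the lipid-anchored semaphorin that binds integrins and plexin-C1, stood at 9.83, 9.87, 9.98 and 9.71 on the cuprizone arrays, against 10.00, 10.08, 10.19 and 10.02 on the control arrays. The groups were apart by 0.02, and the log2 fold change of -0.22 ± 0.07 did not pass (limma adjusted p = 0.0826, over a range of 0.0436 to 1). The class 5 genes carry thrombospondin repeats beside the sema domain. Sema5a, which inhibits axon growth when carried by oligodendrocytes and is a ligand of plexin-B3, had -0.19 ± 0.09, and Sema5b -0.15 ± 0.08. Sema5a stood at 8.99, 9.33, 9.41 and 9.18 with cuprizone, against 9.53, 9.27, 9.40 and 9.48 in controls, and the groups overlapped. Its receptor gene Plxnb3 was thus 2.46-fold lower while the 95% interval of Sema5a ran from -0.40 to 0.01.

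In class 3, the secreted semaphorins, 1 gene rose and none fell. Sema3c, which attracts cortical axons across the developing corpus callosum, stood at 8.40, 8.06, 8.67 and 8.38 on the cuprizone arrays (transcript cluster 10519886), against 7.99, 7.97, 8.01 and 7.87 on the control arrays. The cuprizone arrays were all above the controls, replicate 2 by 0.05 only, and replicate 3 was highest. The mean was 8.38 ± 0.25 with cuprizone and 7.96 ± 0.06 in controls, 1.33-fold higher, and the change of 0.42 ± 0.11 in log2 units had a limma adjusted p of 0.0364. Leaving out any 1 of the 4 controls or cuprizone replicate 1, 3 or 4 raised the adjusted p to between 0.0682 and 0.0996. Without cuprizone replicate 2 the fold change was 0.52 and the adjusted p 0.00249, the alternatives giving 0.00249 to 1.

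Sema3d, a secreted ligand that acts in vessel and axon patterning, stood at 7.05, 6.97, 7.20 and 6.94 with cuprizone, against 6.80, 6.67, 6.90 and 6.93 in controls. The groups were apart by 0.01, and the log2 fold change of 0.21 ± 0.08 did not pass (limma adjusted p = 0.128). Sema3a, a ligand of neuropilin-1 that repels axons and oligodendrocyte progenitors, had -0.19 ± 0.08 (limma adjusted p = 0.220), with overlapping groups. Sema3f, the ligand of neuropilin-2 known to attract progenitors, had -0.03 ± 0.06, with a 95% interval from -0.16 to 0.09. Sema3b, Sema3e and Sema3g had log2 fold changes of -0.05, -0.04 and 0.07. By RefSeq's gene order, Sema3d and Sema3a are direct neighbours on mouse chromosome 5, with Sema3e 3 and Sema3c a further 15 protein-coding genes away. Of these 4 neighbours, Sema3c rose and the others did not pass.

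**Figure D3:**
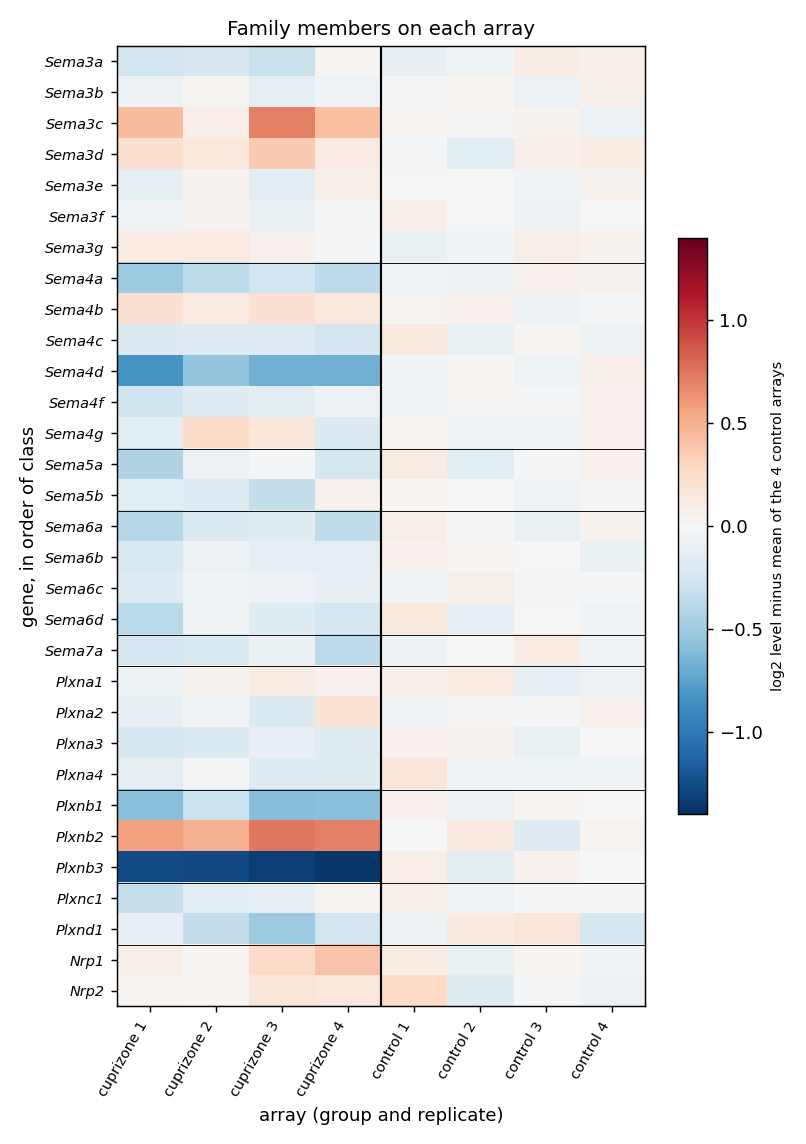
Log2 level of the 31 genes on the 8 arrays (columns, cuprizone left of the line, control right of it) minus each gene's mean on the 4 control arrays, in colour from -1.4 (blue) to 1.4 (red). Plxnb3, Plxnb1 and Sema4d are blue on the 4 cuprizone arrays and Plxnb2 is red on them, while Sema3c is pale on cuprizone replicate 2.

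Ligands and receptors were then set side by side. Of the 20 ligands 1 was higher and 3 were lower, and of the 11 receptors 1 was higher and 2 were lower, where 4.71% of all clusters were higher and 3.52% lower. The number of higher ligands was 0 when any single array other than cuprizone replicate 2 was left out (limma, 3 ligands higher at an unadjusted p under 0.05 with all arrays). The median log2 fold change was -0.14 over the ligands and -0.13 over the receptors, against -0.01 over all clusters tested, and 15 of 20 ligands and 7 of 11 receptors had a negative value. The receptor median was -0.07 without control replicate 1. By class, the ligand medians were -0.03 in class 3, -0.19 in class 4, -0.17 in class 5 and -0.17 in class 6. The receptors had the wider range, from -1.30 to 0.63, and the ligands lay between -0.68 and 0.42. In 14 of the 31 genes the groups were fully apart, 4 with cuprizone above and 10 with cuprizone below, or 45.2% against 15.3% of all clusters. The 15.3% likewise includes dim clusters and is not matched to the level of the family. Of the 14 genes with groups fully apart, 10 were ligands and 4 receptors. A difference between ligands and receptors was not tested.

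The arrays numbered 2 stood apart within both groups. On the first principal component, with 52.2% of the variance, cuprizone replicate 2 stood at 8.73, the other cuprizone arrays between 16.5 and 22.5, control replicate 2 at -13.2 and the other controls between -18.6 and -18.1. Plxnb3 did not show this order, since cuprizone replicate 2 differed from the control mean by -1.27 and the other 3 by -1.36 to -1.25. Sema3c, Plxnb1, Sema4d and Plxnb2 were nearest to the controls on cuprizone replicate 2, at differences of 0.09, -0.30, -0.54 and 0.50 from the control mean. Sema4a and Sema6a were nearest on cuprizone replicate 3, at -0.26 and -0.17, against -0.36 and -0.20 on cuprizone replicate 2. With both arrays left out, which was chosen after these values were seen, the log2 fold changes were -1.36 for Plxnb3, -0.61 for Plxnb1, 0.72 for Plxnb2, -0.71 for Sema4d, -0.41 for Sema4a and 0.53 for Sema3c. The limma adjusted p of these 6 genes was then between 7.56e-06 and 0.0163. That of Sema6a was 0.0625, over a range of 0.0136 to 1.

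Markers of several cell types moved with cuprizone on the same arrays. All 14 measured markers of mature oligodendrocytes fell, with a median log2 fold change of -2.08, and their mean level was 8.11 to 8.94 on the cuprizone arrays, against 10.66 to 10.93 on the control arrays. Mbp, which encodes a main protein of compact myelin, had a log2 fold change of -1.28 ± 0.10, and Mog, for a surface protein of myelin, -3.78 ± 0.18. Of 11 microglia markers 9 rose and none fell, with a mean level of 8.63 to 9.001 on the cuprizone arrays, against 8.05 to 8.21 on the control arrays. The receptor gene Csf1r had 0.61 ± 0.06 and Cx3cr1, for the fractalkine receptor, 0.27 ± 0.08 without passing (limma adjusted p = 0.0677). The oligodendrocyte progenitor list had 1 of 10 lower, and its mean level was 8.46 to 8.69 with cuprizone and 8.64 to 8.78 in controls. In limma 4 of the 10 had an unadjusted p under 0.05, each with a negative fold change. The part of the oligodendrocyte and microglia markers in the falls of Plxnb3, Plxnb1, Sema4d, Sema4a and Sema6a and in the rises of Plxnb2 and Sema3c was not tested.

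Astrocyte markers moved in both directions. Of 10 astrocyte markers 4 rose, among them Gfap at 0.96 ± 0.06, and 2 fell, while the water channel gene Aqp4 had -0.26 ± 0.16. None of 9 endothelial, 6 mural, 14 general neuron, 11 regional neuron, 9 meningeal, 7 choroid plexus, 11 leukocyte or 2 red blood cell markers passed in limma, while 3, 1, 1, 3, 2, 0, 1 and 0 of them had an unadjusted p under 0.05 in that order. Negative fold changes numbered 9, 2, 11, 9, 6, 7, 5 and 1 in the same order, where 52.56% of all clusters tested were negative. The mean level of leukocyte markers was 5.41 to 5.58 with cuprizone and 5.42 to 5.53 in controls. Choroid plexus markers differed widely between arrays of both groups, at 7.12, 8.25, 7.08 and 8.01 with cuprizone and 7.37, 8.28, 7.07 and 8.61 in controls. In both groups the arrays numbered 2 and 4 were thus above those numbered 1 and 3. The cause of this shared order was not tested. Ribosomal protein genes served as a sign of RNA quality, and of 14 none passed in limma and 8 had an unadjusted p under 0.05. All 14 had a positive log2 fold change, with a median of 0.18, and their mean level was 10.34 to 10.53 on the cuprizone arrays, against 10.16 to 10.31 on the control arrays, so that the groups did not overlap. The part of this shift in the family's changes was not tested. No marker has a level of 0 on this log2 scale, and signal over background is not known here.

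**Figure D4:**
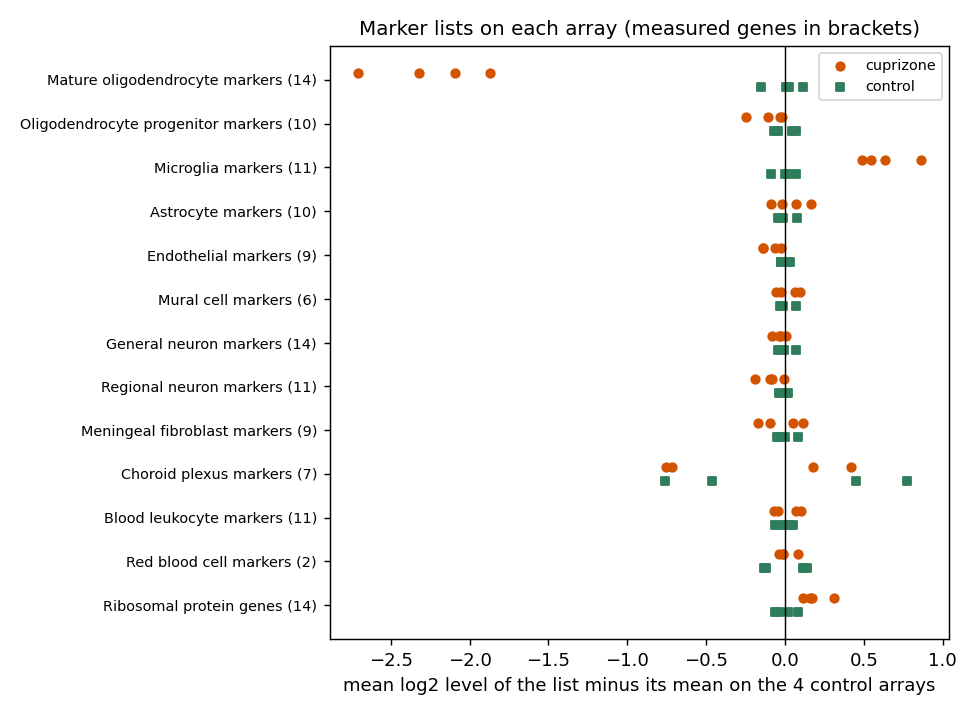
Mean log2 level of each marker list on each array minus the list's mean on the 4 control arrays, on the horizontal axis, with cuprizone arrays as circles and control arrays as squares. The mature oligodendrocyte list lies far to the left and the microglia list to the right on all 4 cuprizone arrays.

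The other genes of the pathway were taken as 3 lists of co-receptors, of growth factors that bind neuropilins and of intracellular effectors. Of 71 measured genes 8 were higher and 6 lower, or 19.7% called, against 8.22% of all clusters (4.71% higher and 3.52% lower). These shares of all clusters include dim clusters here too and were not matched to the level of the pathway genes. Their median log2 fold change was -0.0006, and without cuprizone replicate 1, cuprizone replicate 3 or control replicate 3 the number higher was 5. Of 21 co-receptors and further receptors 5 were higher and 2 lower. Cd72, a receptor of SEMA4D on B cells and myeloid cells, stood at 7.87, 7.91, 8.19 and 7.46 on the cuprizone arrays, against 6.77, 7.08, 7.06 and 6.28 on the control arrays. It was 2.09-fold higher, and the change of 1.06 ± 0.18 in log2 units had a limma adjusted p of 0.00433. Of the genes for SEMA4D and its receptors plexin-B1, plexin-B2 and CD72, Sema4d and Plxnb1 were thus lower and Plxnb2 and Cd72 higher. The part of the oligodendrocyte and microglia markers in the changes of Cd72 and the other pathway genes was not tested.

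Trem2 and Tyrobp, whose products form a myeloid receptor complex with plexin-A1 for SEMA6D, rose by 0.51 ± 0.06 and 0.94 ± 0.08 on the log2 scale. Plxna1 itself had 0.03 ± 0.07. Chl1, an adhesion molecule that joins neuropilin-1, rose by 0.26 ± 0.06. Cntn2, an axonal and oligodendrocyte adhesion molecule that modulates the response to SEMA3A, fell by 1.30 ± 0.06 to 8.67, 8.75, 8.71 and 8.53 on the cuprizone arrays, against 10.04, 9.89, 10.00 and 9.93 on the control arrays. Itga1, an integrin subunit that receives SEMA7A, fell by 0.26 ± 0.05. None of the 5 growth factor genes passed in limma, and 2 had an unadjusted p under 0.05, Pgf at 0.46 ± 0.14 and Vegfc at -0.18 ± 0.06.

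Of 45 measured effectors 3 were higher and 4 lower, or 15.6% called, against the same 8.22% of all clusters, which was not matched for level. Rras, the Ras protein that plexins switch off, stood at 10.13, 10.03, 10.23 and 10.24 on the cuprizone arrays, against 9.53, 9.56, 9.51 and 9.45 on the control arrays. The groups did not overlap, and the level was 1.56-fold higher. The change of 0.64 ± 0.06 in log2 units had a limma adjusted p of 9.18e-05. Rnd3 rose 1.94-fold (0.96 ± 0.17), and Ssh1, a phosphatase that activates cofilin, by 0.26 ± 0.06. Chn2, a Rac-inactivating chimaerin, fell by 0.61 ± 0.07 on the log2 scale and Rap1a, a further GTPase that plexins act on, by 0.46 ± 0.08. Micall1, a relative of the MICAL enzymes, fell by 0.25 ± 0.06 and Cdk5, a kinase of the SEMA3A response, by 0.23 ± 0.05. The values of Rnd3 on the cuprizone arrays were 8.48, 7.89, 8.91 and 8.29, against 7.51, 7.44, 7.43 and 7.37 on the control arrays, with the smallest rise on cuprizone replicate 2.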

How the data were processed

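Total RNA of 8 corpus callosum samples, 150 ng each per the labels' protocols, was amplified and hybridised to 1 array per sample. The authors deposited log2 levels, and the submitters' processing notes name Affymetrix Expression Console, RMA and Transcriptome Analysis Console, without versions. RMA makes the distributions of arrays alike, which hides any change common to most genes. Clusters were named through the platform annotation (21789 with 1 symbol, 1621 with several). The 23410 named clusters were fitted with limma 3.58.1 in R 4.3.3, cuprizone minus control, two-sided, without covariates or filter, with Benjamini-Hochberg adjustment over all of them and a threshold of 0.05. Errors after a fold change are SEs from limma, and after a mean SDs over 4 arrays. The labels call the samples biological replicates. The members and lists were chosen with earlier results of these data known. All members are named, and of each pathway list at most the 4 genes with the smallest p per direction, or 2 where none passed. The alternatives were the replicate block, each array left out, an ordinary F test, a robust prior with trend, median centring, a further quantile normalization, 2 filters on dim clusters, all clusters, 1 cluster per gene, array weights, a 1.2-fold test and other clusters of a gene. The fit was tested on simulated data with independent noise in each cluster and array. That simulation held no shifts shared by the clusters of an array, so it does not cover such shifts here. Over all named clusters, same-numbered arrays correlated in their deviations at -0.19, -0.02, 0.21 and -0.06, so the numbers were not taken as pairs. The choroid plexus markers were nonetheless higher on the arrays numbered 2 and 4 in both groups, and the replicate block is among the alternatives. No scan date or detection call was used. List genes without a cluster of their own symbol alone, among them Pak1, Rock2 and Ptk2, were not analysed here, and Figf and Drd1a were named Vegfd and Drd1 in the RefSeq table.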

Additional observations from a re-analysis of the deposited data

Results flagged for a closer look

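For 4 genes, 1 array of a group stood far from the other 3, by a share of the group's range above Dixon's 95% critical value. Of 62 combinations of gene and group examined, chance alone flags about 1 in 20. Plxnb1 was at 8.87 on cuprizone replicate 2, against 8.57 to 8.59 on the other cuprizone arrays. Sema4c was at 7.53 on cuprizone replicate 4, against 7.60 to 7.61 on the others. Control replicate 2 had 7.59 for Sema6c, where the rest of its group had 7.48 to 7.49. Control replicate 1 had 10.01 for Plxna4, where the rest had 9.77 to 9.78.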

How the results depend on the processing

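Of 619 recomputed fold changes of the 31 genes under up to 21 alternatives, 588 kept their direction and side of the threshold or changed sign only while uncalled, 20 lost a call, 11 gained one and 0 called values reversed. Over all clusters, 632 instead of 1102 were higher in an ordinary F test. Higher family genes numbered 1 in that test and in the test against a 1.2-fold change, and 1 to 2 when 1 array was left out. Lower ones numbered 8 after median centring and above the median level, and 2 in the 1.2-fold test. Higher ligands numbered 0 in the F test (3 at an unadjusted p under 0.05, as in limma, which called 1), 2 above the median level and 0 to 1 with 1 array left out, and lower ligands 5 after centring and above the median level. Higher pathway genes numbered 5 to 8 with 1 array left out. The medians then ranged from -0.157 to -0.111 for ligands and from -0.147 to -0.0689 for receptors. Calls were gained for Sema4b, Sema4c, Sema7a, Plxna3 and Plxnd1. The arrays numbered 2 were left out together after the data were seen, and 2 family genes were then higher and 4 lower. With the replicate block, the pairing of equal numbers, 2 family genes were higher and 4 lower, Sema6a having an adjusted p of 0.0941. The cause of these changes was not tested. The number of arrays limits precision, and signal over background is not known.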
